A study of Mus musculus with 6 samples.

Results

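The BCL2 family genes Bcl2, Bcl2l1, Bcl2l2, Mcl1, Bax, Bak1, Bcl2l11, Bid, Bad and Bmf were followed through a genome-wide map of DNA ends. They are 10 of the 21887 protein-coding genes of the RefSeq table and were chosen by name. A peak was assigned to a gene when its summit, the base of highest signal, lay inside the gene or within 10 kb of either end. The assay was BrITL, in which DNA ends in permeabilised cells are tagged with a biotin nucleotide, captured on streptavidin beads and sequenced. All 6 samples came from passage-immortalized mouse embryonic fibroblasts that were ATR+/- and expressed Bcl-xL, the protein of Bcl2l1, so the controls carry both alterations too. The labels do not state which promoter drives Bcl-xL or how many lines were used. Vehicle cells had DMSO for 18 h, and treated cells had 1 µM of the ATR inhibitor ATR-45 with 0.2 µM aphidicolin, which slows DNA polymerases, for 18 h. Each condition comprised 2 pull-down samples and 1 input sample. The question, per the series' design text, was where double-strand breaks arise under this treatment.

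The files hold 1 peak list per condition, with all pull-downs of that condition pooled against its inputs, so no value below has a replicate error and no difference between conditions was tested. The DMSO list has 6444 peaks and the treated list 491. The numbers in the peak names run to 64322 (DMSO) and 5400 (treated), so most numbered peaks are absent from the lists. The authors' fold enrichment, a ratio of pull-down to background at the summit, has a median of 10.99 for DMSO peaks and 5.19 for treated peaks. The lists entered at unlike strength, with a lowest −log10 q of 18.5 (DMSO) and 3.38 (treated). The lowest count of pull-down fragments at a summit was 35 in both lists, and the list backgrounds were 2.88 (DMSO) and 5.14 (treated) pull-down fragments. Background terms given below are on the caller's scale, where a pull-down fragment counts as 0.805 (DMSO) or 0.439 (treated). On that scale the backgrounds are 2.32 and 2.26. The files hold no RNA, so the fibroblast identity and the level of Bcl-xL could not be checked.

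BCL2 proteins set the threshold of the mitochondrial pathway of apoptosis. The anti-apoptotic members Bcl-2 (Bcl2), Bcl-xL (Bcl2l1), Bcl-w (Bcl2l2) and Mcl-1 (Mcl1) hold the effectors Bax and Bak (Bak1) in check, and freed effectors open the outer mitochondrial membrane and release cytochrome c. The BH3-only proteins Bim (Bcl2l11), Bid, Bad and Bmf sense damage or lost survival signals and bind the anti-apoptotic members, and Bim and Bid can also activate the effectors. Added Bcl-xL is a common means of keeping cultured cells alive under damage.

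In vehicle cells 8 of the 10 genes had a summit in the window, against 29.9% of all protein-coding genes. By gene length that share ran from 22.9% (up to 10 kb long) to 35.7% (over 30 and up to 100 kb long). In treated cells 0 of the 10 had one, against 1.78% of all protein-coding genes, so a count of 0 among 10 genes is near the background. The genes without a DMSO summit were Bcl2 and Bmf. The 8 genes held 11 DMSO summits, 6 inside a gene body and 5 in the flanks. A summit lay inside the body of 5 of the 10 genes, against 13.2% of all protein-coding genes, and 3 genes (Bcl2l2, Bak1 and Bad) had 2 summits each. In 7 genes a summit lay within 1 kb of a RefSeq transcription start of the gene itself, a position that 21.4% of the protein-coding genes with a listed start share. At Bak1 and Bad that summit also lay within 1 kb of a neighbour's start, 416 bp from Ggnbp1 and 537 bp from Gpr137. These counts describe the genes named and were not tested, since the genes are not samples and the windows also take in neighbouring genes.

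**Figure D1:**
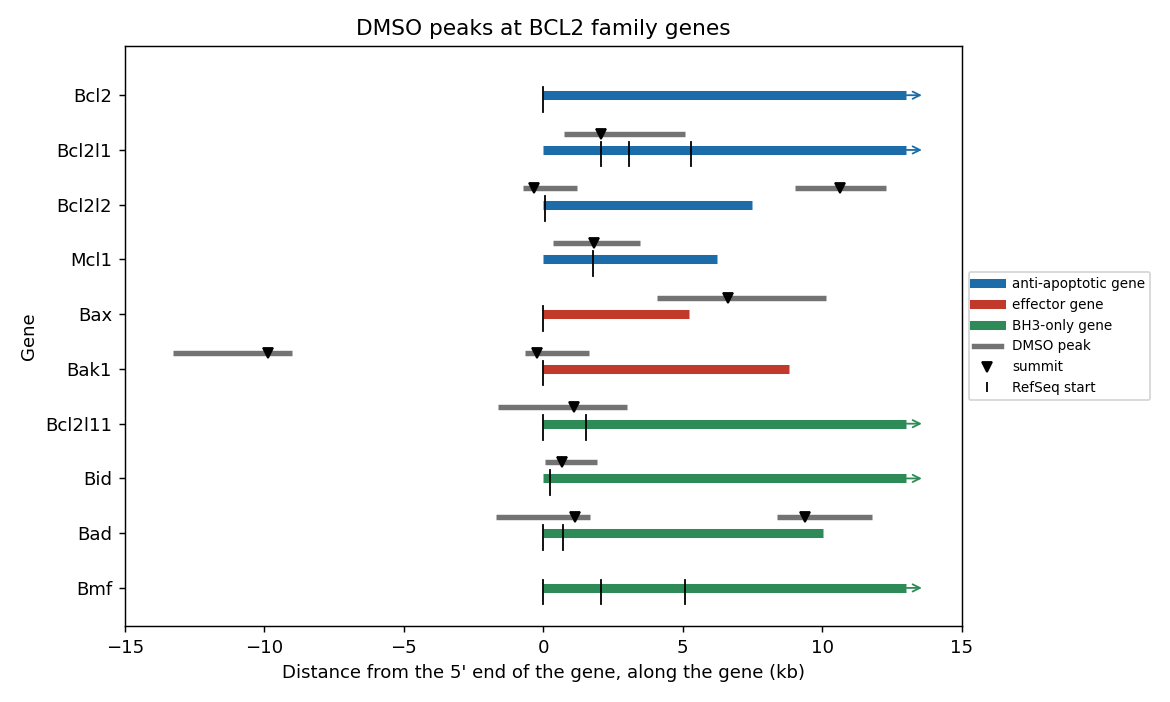
Position of the DMSO peaks along each gene, in kb from the 5′ end of the gene table entry, with genes drawn 5′ to 3′ and cut at 13 kb where an arrow is shown. Grey bars are peaks, triangles are summits and black ticks are RefSeq starts. Summits sat at a start in 7 genes, beyond the 3′ end of Bax and Bcl2l2, inside that of Bad and upstream of Bak1, and Bcl2 and Bmf had none.

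The promoters below belong to starts near these summits, shown to let the letters be read beside the summit position. Each runs from 250 bases before the RefSeq start to 50 after it, 5′ to 3′ on the gene's strand, from RefSeq on GRCm38.p6, the assembly also called mm10, which the submitters' processing notes name. The first 6 are promoters of genes with a DMSO summit within 1 kb of the start shown, and the Bcl2 promoter is added for contrast, as a gene with none. For Bcl2l1 and Bad, which have 3 and 2 listed starts, the start nearest the summit is shown. Capitals mark the GC box GGGCGG and the CCAAT box CCAAT, on either strand.
Bcl2l1 (chr2:152831679-152831978, - strand): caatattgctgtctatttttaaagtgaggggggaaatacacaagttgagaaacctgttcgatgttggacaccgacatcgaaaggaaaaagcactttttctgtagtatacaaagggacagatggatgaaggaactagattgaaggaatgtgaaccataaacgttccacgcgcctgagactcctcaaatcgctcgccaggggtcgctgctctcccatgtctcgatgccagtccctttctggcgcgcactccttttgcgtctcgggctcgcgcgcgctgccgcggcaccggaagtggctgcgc
Mcl1 (chr3:95658471-95658770, + strand): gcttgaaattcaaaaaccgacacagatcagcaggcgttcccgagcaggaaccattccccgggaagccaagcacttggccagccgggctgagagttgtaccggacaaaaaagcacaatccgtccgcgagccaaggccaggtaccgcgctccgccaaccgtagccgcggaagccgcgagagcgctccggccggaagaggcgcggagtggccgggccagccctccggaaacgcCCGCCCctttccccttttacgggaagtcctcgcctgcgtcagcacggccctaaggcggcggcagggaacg
Bak1 (chr17:27028578-27028877, - strand): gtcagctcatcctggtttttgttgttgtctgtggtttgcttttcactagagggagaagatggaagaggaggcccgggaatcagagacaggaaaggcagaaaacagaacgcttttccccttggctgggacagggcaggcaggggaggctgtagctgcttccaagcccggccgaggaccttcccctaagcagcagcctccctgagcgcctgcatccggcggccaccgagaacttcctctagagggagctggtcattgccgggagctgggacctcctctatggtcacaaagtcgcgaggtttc
Bad (chr19:6942312-6942611, + strand): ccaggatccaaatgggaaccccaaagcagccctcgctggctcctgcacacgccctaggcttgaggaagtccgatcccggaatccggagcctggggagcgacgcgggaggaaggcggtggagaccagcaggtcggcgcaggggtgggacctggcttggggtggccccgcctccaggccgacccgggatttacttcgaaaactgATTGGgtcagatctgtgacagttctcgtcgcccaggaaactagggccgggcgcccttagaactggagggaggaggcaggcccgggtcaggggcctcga
Bcl2l2 (chr14:54883175-54883474, + strand): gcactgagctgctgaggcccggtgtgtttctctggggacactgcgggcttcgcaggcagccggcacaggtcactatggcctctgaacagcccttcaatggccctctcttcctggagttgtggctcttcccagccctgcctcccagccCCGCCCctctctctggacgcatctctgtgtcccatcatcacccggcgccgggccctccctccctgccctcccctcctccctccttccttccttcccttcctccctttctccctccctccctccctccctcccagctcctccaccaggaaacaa
Bid (chr6:120916775-120917074, - strand): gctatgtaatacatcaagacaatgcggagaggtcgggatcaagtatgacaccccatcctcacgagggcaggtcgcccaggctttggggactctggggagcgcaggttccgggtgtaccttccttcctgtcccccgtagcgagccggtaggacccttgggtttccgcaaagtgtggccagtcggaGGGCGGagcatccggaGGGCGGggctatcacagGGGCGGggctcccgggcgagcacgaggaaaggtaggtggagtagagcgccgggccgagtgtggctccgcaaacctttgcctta
Bcl2 (chr1:106714241-106714540, - strand): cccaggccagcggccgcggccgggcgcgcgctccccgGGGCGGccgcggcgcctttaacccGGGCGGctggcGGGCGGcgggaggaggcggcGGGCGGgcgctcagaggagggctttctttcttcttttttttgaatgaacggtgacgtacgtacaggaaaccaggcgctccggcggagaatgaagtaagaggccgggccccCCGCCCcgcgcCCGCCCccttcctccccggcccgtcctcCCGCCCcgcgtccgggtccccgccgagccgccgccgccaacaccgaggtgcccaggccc

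The summit is base 262 of the 300 printed for Bcl2l1, base 296 for Mcl1 and base 35 for Bak1. For Bad, Bcl2l2 and Bid the summit lies outside the printed stretch. The Bcl2l1, Bak1 and Bad promoters shown hold no GC box, and those of Mcl1 and Bcl2l2 hold 1 each. The promoter of Bid holds 3, as does that of the Bcl2l11 start 449 bp from its summit, whose letters are not shown, and that of Bcl2, which has no peak, holds 7. Counting every member start within 1 kb of a DMSO summit, 4 of 8 held a GC box. Among all protein-coding promoters the share was 77.2% with a DMSO summit within 1 kb and 38.1% without one. Over all 16 RefSeq promoters of the 10 genes, 9 held a GC box, which is found in 46.2% of protein-coding promoters of the same length (35.7% of all 32851 promoters). A CCAAT box was found in 5 of 16, against 38.2% of protein-coding promoters. The E-box CACGTG was found in 1 of 16, that of Bax with 2 copies, against 7.84%. The TATA box TATAAA, the cyclic AMP element TGACGTCA and the AP-1 site TGACTCA were in 0 of 16, against 12.6%, 2.23% and 4.66%. All were searched on both strands, and no matches of different motifs overlapped. These matches describe letters only.

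Base composition varied widely among the promoters. Over all protein-coding promoters, those with a DMSO summit within 1 kb had a median G+C content of 64.7% (n = 4392) and the others 54.0% (n = 16871). The median CpG ratio, the CpG count over the count its C and G content would give, was 0.839 and 0.419. Among the members the Mcl1 promoter had a G+C content of 65.7%, near the median of the group with summits, and a CpG ratio of 1.02. The Bcl2l1 start at the summit had a G+C content of only 52.3% but the highest CpG ratio of the 16, at 1.07. Among protein-coding promoters with a DMSO summit within 1 kb, the quartiles of the CpG ratio were 0.706 and 0.956. Of the 8 member starts within 1 kb of a summit, those of Bcl2l11 (0.94) and Bid (0.75) lay between these quartiles. The Bcl2l1 start at the summit (1.07) and the Mcl1 start (1.02) lay above them. The other Bcl2l1 start (0.61) and those of Bad (0.65), Bak1 (0.44) and Bcl2l2 (0.34) lay below them. Bcl2 had the highest G+C content, 76.0%, with a CpG ratio of 1.02, and no peak. Bmf, also without a peak, had starts with CpG ratios of 0.29, 0.32 and 0.57.

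Among the anti-apoptotic genes, Bcl2l1 had the peak of highest fold. Bcl2l1 (gene ID 12048) spans 152758732 to 152833803 on chromosome 2, minus strand, and is 75.1 kb long. Its only DMSO peak covers 152828735 to 152833059 and is 4.33 kb wide. Its summit lies 11 bp downstream of the 5′-most of 3 listed starts and 1000 bp upstream of the next. The authors' fold there was 16.35, higher than or equal to 90.3% of DMSO peaks, with a −log10 q of 50.6. The summit had 70 pull-down fragments (95% Poisson interval 54.6 to 88.4, counting error only). The labels do not give the sequence of the introduced Bcl-xL. Its part in this peak was not tested. The background term at the summit, which the caller takes from input coverage, was 2.51 against a list background of 2.32.

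Mcl1, which encodes a short-lived survival protein, showed the other summit that sat on a start. The gene (ID 17210) spans 95656944 to 95663179 on chromosome 3, plus strand. Its peak covers 95657302 to 95660429, wholly inside the gene, which is 6.24 kb long. Its summit lies 45 bp downstream of the listed start, with a fold of 11.72, a −log10 q of 28.5 and 47 fragments (interval 34.5 to 62.5). That fold is higher than or equal to 60.0% of DMSO peaks, and the interval of the fragments overlaps that of Bcl2l1.

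Bcl2l2 (ID 12050, chromosome 14, 54883366 to 54890858, plus strand) had 2 summits in its window. The peak at 54882658 to 54884592 has its summit 373 bp upstream of the start, with a fold of 10.26, a −log10 q of 23.9 and 41 fragments (interval 29.4 to 55.6). The other, at 54892375 to 54895646, lies beyond the 3′ end. Its summit is 146 bp upstream of the start of the next gene, Pabpn1, which encodes a nuclear poly(A)-binding protein, and 3139 bp from Bcl2l2. This peak had 55 fragments (interval 41.4 to 71.6), which overlaps the interval of the peak at the Bcl2l2 start. Its fold was lower, at 6.47, with a background term of 6.0 on the caller's scale.

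Bcl2, the founding member of the family, is the longest of the 10 genes at 176 kb (ID 12043, chromosome 1, 106538176 to 106714290, minus strand). It had 0 summits in either list. Its nearest DMSO summit lay 367 kb away, 0.538 kb from an end of Phlpp1, a phosphatase gene, with a fold of 12.93. The deposited DMSO peaks on each side of Bcl2 lay 13233 kb apart. Their names skip 58 numbers, so the span may hold peaks that were called but not kept. Of protein-coding genes over 100 kb long, 30.7% had a DMSO summit in the window, so a long gene without one was the commoner case.

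The effector genes differed in where their peaks lay. Bak1 (ID 12018, chromosome 17, 27019812 to 27028627, minus strand) had a peak over its start, at 27026984 to 27029273. The summit lies 216 bp upstream of the start, with a fold of 9.29, a −log10 q of 19.5 and 37 fragments (interval 26.1 to 51.0). Only 20.5% of DMSO peaks had a fold this low or lower. This summit is also 416 bp upstream of a start of Ggnbp1, which runs the opposite way, so it lies between both starts and cannot be given to either gene. A stronger peak lay at 27037633 to 27041896, with a fold of 17.30 and 70 fragments (interval 54.6 to 88.4). Its summit is 9854 bp upstream of Bak1, just inside the 10 kb limit, and 2103 bp beyond Ggnbp1.

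Bax (ID 12028, chromosome 7, 45461695 to 45466903, minus strand) had no summit at its own start. The peak in its window, at 45456775 to 45462825, has the highest fold of the 11, 18.28, with a −log10 q of 56.5 and 74 fragments (interval 58.1 to 92.9). It reaches the 3′ end of Bax, but its summit lies 1429 bp beyond that end and 6632 bp from the Bax start. The summit is 380 bp upstream of the start of Ftl1, a ferritin light chain gene that follows Bax on the same strand. At the Bax start, whose promoter holds 3 GC boxes and 2 E-boxes, neither list had a peak.

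All 3 BH3-only genes with peaks had a summit near a start. Bcl2l11 (ID 12125, chromosome 2, 128126038 to 128162547, plus strand) had a peak at 128124403 to 128129043 that covers both listed starts. Its summit lies between them, 1088 bp downstream of the upstream start and 449 bp upstream of the other. It had 70 pull-down fragments (interval 54.6 to 88.4), as many as Bcl2l1. Its background term was 5.0 on the caller's scale, and its fold was 9.56. The 3′ end of Acoxl, an acyl-CoA oxidase-like gene, is 874 bp away.

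Bid (ID 12122, chromosome 6, 120893119 to 120917062, minus strand) encodes the link from death receptors to mitochondria, which caspase 8 cleaves. Its peak, at 120915133 to 120916994, is the narrowest of the 11 at 1.86 kb. The summit lies 449 bp downstream of the start, with a fold of 10.26, a −log10 q of 23.9 and 41 fragments (interval 29.4 to 55.6). The family gene Bcl2l13 ends 276 bp from the 3′ end of Bid, and its own start had a DMSO summit 447 bp upstream, with a fold of 9.29 and 37 fragments.

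Bad (ID 12015, chromosome 19, 6941861 to 6951905, plus strand) encodes a protein whose binding to Bcl-xL is switched off by phosphorylation. It had a summit at each end. The peak at 6940163 to 6943542 has its summit 425 bp downstream of the inner of 2 listed starts, with a fold of 11.23 and 45 fragments (interval 32.8 to 60.2). It is also 537 bp upstream of a start of Gpr137, which runs the opposite way. The peak at 6950228 to 6953659 has its summit 650 bp inside the 3′ end, with a fold of 11.72 and 47 fragments (interval 34.5 to 62.5). No listed start of a protein-coding gene lay within 1 kb of that summit, the nearest other being 8805 bp away.

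Bmf (ID 171543, chromosome 2, 118528757 to 118549686, minus strand), which responds to loss of attachment and to cytoskeletal stress, had 0 summits in both lists. The nearest DMSO summit was 141 kb away, 0.367 kb from an end of Eif2ak4, a stress kinase gene, with a fold of 13.37. Between the deposited DMSO peaks on each side of Bmf the peak names skip 45 numbers. Of protein-coding genes over 10 and up to 30 kb long, as Bmf is, 33.5% had a DMSO summit in the window.

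Within the DMSO list the member peaks were ordinary in strength. Their folds ran from 6.47 to 18.28 with a median of 11.23, against 10.99 for the list, and 6 of the 11 were at or above the list median. The 3 highest folds, 18.28, 17.30 and 16.35, belonged to the peaks at Ftl1 beside Bax, upstream of Bak1 and at the Bcl2l1 start. The other 6 peaks at a member's own start had folds from 9.29 to 11.72. Summits lay within 500 bp of a start of some protein-coding gene in 9 of 11 cases, 7 at the member itself and 2 at its neighbours Pabpn1 and Ftl1. The Bak1 summit among the 7 was also within 500 bp of a Ggnbp1 start. Among all DMSO summits 43.6% lay within 500 bp of a start of a protein-coding gene. That set also holds summits far from genes, which the 10 kb window leaves out for the members, so the shares are not like for like.

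**Figure D2:**
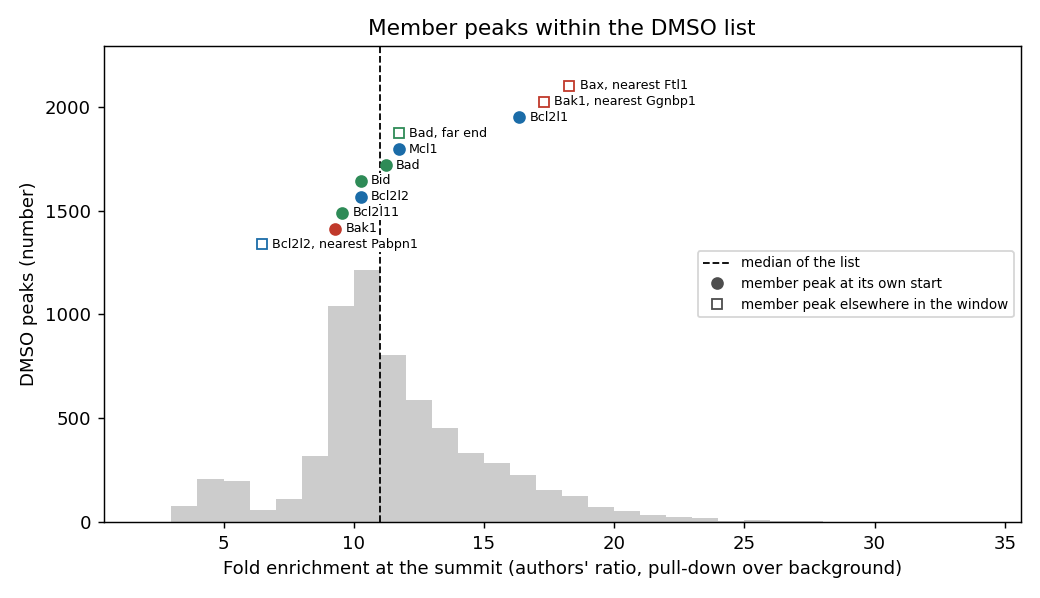
Fold enrichment at the summit of the 11 member peaks (symbols, stacked upward in order of fold) over the histogram of all 6444 DMSO peaks. Filled circles are peaks at the member's own start and open squares are other peaks in its window. The symbols run from 6.47 to 18.28 on both sides of the list median of 10.99.

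Peaks of similar fold differed in coverage where their background terms differed, as at Bak1 (fold 9.29, 37 fragments) and Bcl2l11 (fold 9.56, 70 fragments). Pull-down fragments at the 11 summits ran from 37 to 74 with a median of 47, against 49 for the DMSO list. The background term was at the list's lowest value, 2.32 on the caller's scale, for 8 of the 11, as it was for 69.3% of all DMSO peaks. The exceptions were Bcl2l1 (2.51), Bcl2l11 (5.0) and the Pabpn1 side of Bcl2l2 (6.0). The Poisson interval of the weakest start peak, Bak1 with 26.1 to 51.0, did not overlap that of Bcl2l1 and Bcl2l11, which began at 54.6. The intervals of Mcl1, Bad, Bcl2l2 and Bid overlapped with each other and with that of Bak1. All these intervals cover counting error only and hold no spread between replicates.

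**Figure D3:**
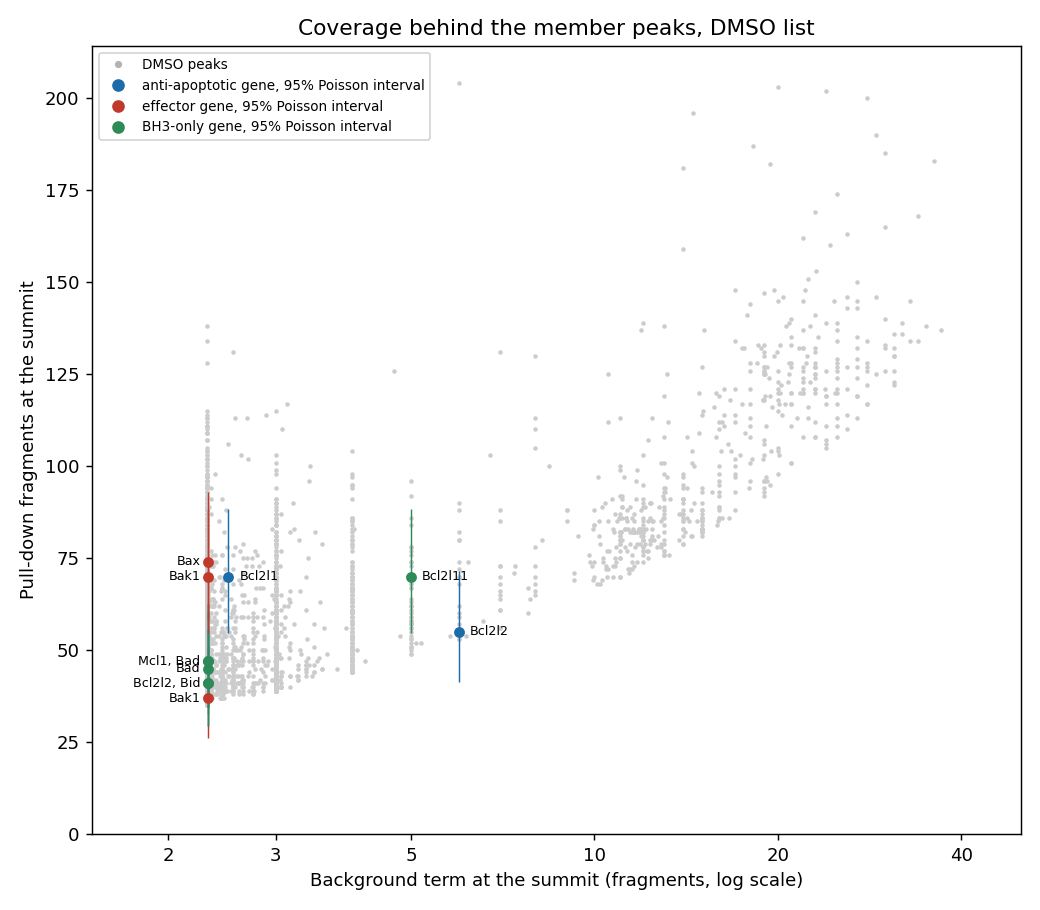
Pull-down fragments at the summit against the background term (caller's scale, log axis) for the member peaks, with 95% Poisson intervals, over all DMSO peaks in grey. Most members stack at the list background of 2.32, where equal values coincide, and Bcl2l11 and the Pabpn1 side of Bcl2l2 lie to the right at 5.0 and 6.0.

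No member peak met a treated peak. Of the 11 DMSO peaks, 0 overlapped a treated peak, against 2.90% of all DMSO peaks and 1.19% of DMSO peaks in the members' range of fold. With so few peaks this does not set the members apart. The nearest treated summit lay between 88.9 and 19670 kb from the gene, with a median of 819 kb. Over all protein-coding genes the median was 2126 kb, with quartiles of 599 and 5572 kb, so the members' median lay between those quartiles. The nearest treated summit was closest to Bad, 88.9 kb away beside Stip1, a co-chaperone gene (fold 6.13, −log10 q 7.46). The next was 130 kb from Bcl2l1, 11.3 kb from an end of Dusp15, a phosphatase gene (fold 4.24, −log10 q 3.98). For Mcl1 it was 576 kb away at the histone gene H2ac19 (fold 7.05). For Bcl2 it was 19670 kb away. Absence from the treated list does not show that treated cells lacked ends at these genes, since how peaks were kept is not given and the lists entered at unlike strength.

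**Figure D4:**
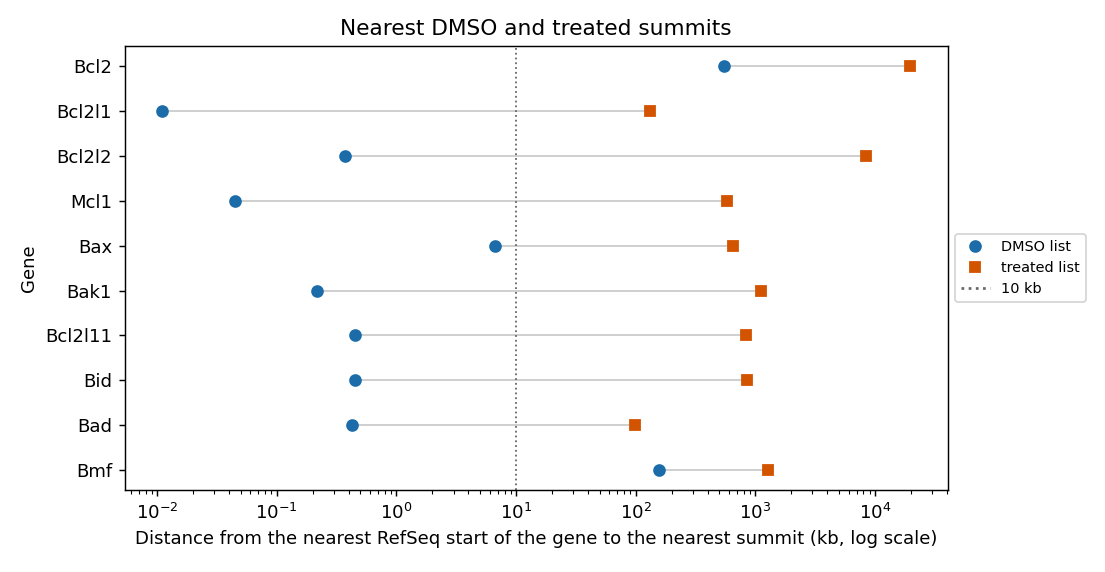
Distance in kb, on a log axis, from the nearest RefSeq start of each gene to the nearest DMSO summit (circles) and the nearest treated summit (squares), with a dotted line at 10 kb. DMSO summits lie inside the line for 8 genes and outside it for Bcl2 and Bmf, and all treated summits lie outside it.

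Within 50 kb but outside 10 kb lay 14 DMSO summits, and 0 treated summits. Of these, 12 were within 1 kb of an end of another gene, and the other two were 4637 bp from Id1 and 13995 bp from Adamtsl4. The nearest to a member was 12.6 kb from Mcl1 at an end of Adamtsl4 (fold 11.96), followed by a summit 13966 bp from Bcl2l1 at an end of Tpx2, a spindle assembly gene (fold 9.53). Of the 14, 5 were near Bad, 4 near Mcl1, and 0 near Bcl2 or Bmf.

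The rest of the pathway was read from lists of 57 other genes. In all, 24 of 57 had a DMSO summit in the window (42.1%), beside 29.9% of all protein-coding genes, and 1 had a treated summit (1.75%), beside 1.78%. Of these lists, that of the apoptosome, caspases and their inhibitors had a summit in 12 of 20 (60.0%). Of the 17 with a listed start, 8 had a summit within 1 kb of a start, beside 21.4% of all protein-coding genes with a listed start. The same count was 1 of 12 for the other BCL2 family and 0 of 7 for the death receptor genes. It was 1 of 5 for the mitochondrial partners, 2 of 4 for the genes that control members and 12 of 45 over all these lists. The summits of Endog and Dffb lay at neighbours, 114 bp from an end of Spout1 and 243 bp from an end of A430005L14Rik. Casp9, the initiator caspase of this pathway, had a summit 93 bp upstream of its 5′ end, with a fold of 17.55. Casp2, another initiator caspase, had one 171 bp upstream (14.14), and Htra2, a mitochondrial protease gene, one 18 bp inside an end (13.33). Cycs, which encodes the cytochrome c that the effectors release, had one 10 bp inside its 5′ end (12.69), and Apaf1, the scaffold of the apoptosome, one 633 bp upstream (10.75).

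The treated summit belonged to Birc6, a large inhibitor of apoptosis that also has ubiquitin-conjugating activity. It lay 221 bp upstream of the Birc6 start, with a fold of 4.89, a −log10 q of 3.57 and 35 fragments, the fewest of any treated peak. The DMSO summit there lay 238 bp upstream, with a fold of 21.92, a −log10 q of 73.4 and 89 fragments (interval 71.5 to 109.5). The highest member peak had 74, and its interval of 58.1 to 92.9 overlaps that of Birc6.

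Of the other BCL2 family genes, 4 of 16 had a DMSO summit (25.0%), a share near the 29.9% of all protein-coding genes. They were Bbc3, which encodes the p53-induced BH3-only protein Puma (15.85, inside the gene), Bnip3l (12.45), Bcl2l13 (9.29) and Bcl2l12, whose summit (23.38) lay 164 bp from an end of Prmt1. Pmaip1, Hrk, Bik, Bok and Bcl2l10 were among the 12 without a summit, as were Bcl2a1a, Bcl2a1b, Bcl2a1c and Bcl2a1d. Of the death receptor genes, 1 of 9 had a summit (11.1%), Cflar, which encodes an inhibitor of caspase 8 (10.99). Of the mitochondrial partners, 3 of 7 had one (42.9%). Vdac2, a channel that holds Bak at the membrane, had 2 summits, 1 of them 513 bp outside an end (10.75) and the other nearer its neighbour Comtd1 (10.99). Vdac3 had 1 summit inside the gene (10.75). The fission gene Fis1 had 3, which lay 590 bp upstream (9.91), inside the gene 4127 bp from an end (7.45) and beyond the 3′ end nearer Cldn15 (10.43). Of genes that control members, 4 of 5 had one (80.0%), with Foxo3, an activator of Bim transcription, at 14.15, the Mcl-1 deubiquitinase gene Usp9x at 13.66, the Mcl-1 ligase gene Fbxw7 at 10.75 and Trp53, which encodes p53, at 10.50, with a summit 570 bp from an end of its neighbour Wrap53.

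**Figure D5:**
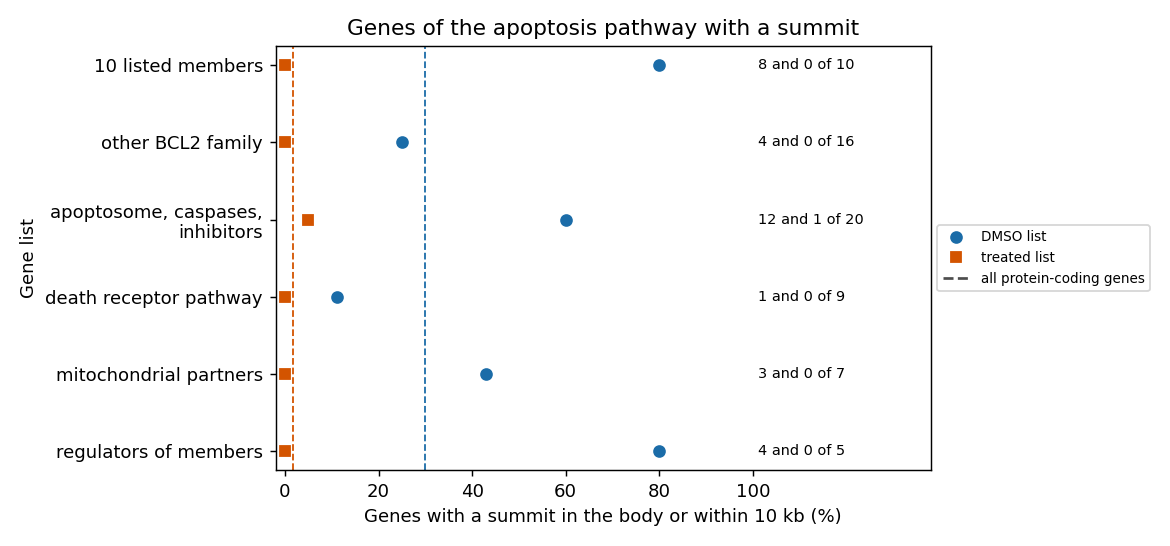
Share of genes in each list with a summit in the body or within 10 kb, for the DMSO list (circles) and the treated list (squares), with the counts for DMSO and treated at the right. Dashed lines give the shares of all protein-coding genes, 29.9% (DMSO) and 1.78% (treated), and the only treated gene of any list is Birc6.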

How the data were processed

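The authors deposited 1 peak list per condition, pooled over samples per the names in the files. Per the submitters' processing notes, the build was mm10, and MACS2 2.1.0, Picard 1.141, STAR 2.5.2a, bcl2fastq 2.17.1.14 and SAMtools 0.1.19 were used, in roles and with settings not given in the sources used here. How peaks came to be kept is likewise not given. Each deposited peak has a fold enrichment (a ratio), −log10 p and −log10 q values, and a score, which in all 6444 and 491 peaks is the whole part of 10 times the −log10 p. Folds were used only within a list.

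Gene positions and starts came from RefSeq GRCm38.p6 tables, without exons. Of 67 genes named, 67 matched the gene table and 55 the promoter table. The members, lists and motifs were chosen with earlier results of these data known. Genes named besides the 10 members were those with a treated summit, up to 4 per list with the highest DMSO folds, and neighbours whose end was nearer to a summit than the member's. Cycs, Apaf1, Endog, Dffb, the family genes without a summit, the genes outside the window, and the Bak1 and Bcl2 promoters were added after their values were seen.

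Pull-down coverage and the background term were solved from fold (pileup plus 1 over background plus 1) and −log10 p (a Poisson tail), and a solution was accepted where its fragment count came within 0.02 of a whole number. Pull-down fragments are the pileup divided by a scaling step, 0.805 (DMSO) and 0.439 (treated), and background terms were not divided. All peaks (100%) gave one. On simulated peaks 100% of 196 (treated) and 100% of 200 (DMSO) were recovered. These peaks were made with the same formula and scaling step, with the background at the list value or a small whole number. The recovery therefore checks the arithmetic only and does not cover other background terms. Read totals are unknown. Intervals are exact Poisson at 95% and, as PCR copies are not independent, cover counting error only. Python 3.11.15 was used with pandas 2.3.3, SciPy 1.17.1 and NumPy 2.4.6. Other windows, thresholds and overlaps were tried. No test was run, since each condition is 1 pooled list.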

Additional observations from a re-analysis of the deposited data

How the results depend on the processing

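No paired analysis was possible because each condition is 1 pooled list with no value per replicate, and leaving out a replicate was not possible for the same reason. Of 41 alternatives, 27 kept the value within 1.5 times (medians: equal) and 14 moved it, and the members' counts of 0 treated summits and 0 overlapping treated peaks held under each alternative tried for them. Counting the gene body alone left 5 members and 6 summits in the DMSO list, from 8 and 11. The 5 summits left out were those upstream of Bcl2l2 and Bak1 (2 at Bak1) and downstream of Bcl2l2 and Bax. A window of 50 kb gave 25 summits. Peaks at or above the median −log10 q left 6 members and 6 summits. Of these summits 1 lay within 1 kb of an end of the gene, from 4, and the median fold was 14.03 in place of 11.23. Assigning a summit to the nearest protein-coding gene left 6 members and 7 summits. The median fold was 10.75 with a window of 1 kb and 11.72 with the highest fold per member. Summits near a gene end numbered 2 within 500 bp and 8 within 2 kb. These ends are of the gene table entry, which for Bcl2l1 and Mcl1 lies 2086 and 1822 bp from the summit. Of alternatives chosen after seeing the data, the gene body alone left 10 pathway genes (DMSO, from 24) and 0 (treated, from 1), and a window of 1 kb a median coverage of 46 fragments, from 47.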
